A study of Mus musculus with 2 samples.

Results

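The genes described here encode the enzymes, carriers and regulatory kinases of glycolysis, gluconeogenesis and pyruvate handling in AML12 cells. They are 44 genes of the 35275 in the deposited count table, chosen by name for their place in the pathway and not by their values, and were found through their Ensembl identifiers in the GENCODE M21 annotation of GRCm38. AML12 is a non-transformed mouse hepatocyte line, derived from a mouse that carries a transgene for transforming growth factor alpha. Both libraries come from this line, for which the labels give strain CD-1, liver, male and 3 months. The control cells (labelled Young) were not treated. The senescent cells (labelled Old) were exposed to hydrogen peroxide on 6 days, each time for 1 h followed by 23 h without it. The dose was 1 mM on the opening day and 750 μM on the days that followed. Each library is a pool of RNA from 3 samples, so the differences below have no replicate check, no p-value was computed, and the spread between cultures cannot be read. Treatment, culture and library cannot be told apart.

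Glycolysis splits glucose into pyruvate in the cytosol, and lactate dehydrogenase then converts pyruvate to lactate while restoring NAD+. Pyruvate can instead enter mitochondria, where the pyruvate dehydrogenase complex commits it to oxidation, kinases of the complex switch it off and phosphatases switch it on again. In hepatocytes the flow can also run backwards, from pyruvate to glucose, through a set of bypass enzymes that are a hallmark of the differentiated liver. Many steps are served by several isoforms from separate genes, some of them typical of liver and others of muscle, brain or growing cells.

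The control library held 28021941 reads on genes and the senescent library 25738075. Reads were scaled by the TMM method into CPM (counts per 1000000 scaled reads), which serve to compare one gene between libraries. TPM (transcripts per 1000000), which also correct for exon length, serve to compare genes with each other. The log2 ratio is that of senescent over control, with a prior count of 1, and its 95% interval covers counting error only, as does the floor used for low counts: PCR copies of a molecule cannot be recognised here. A gene was tested, in the sense of being compared with the threshold, when its reads in both libraries summed to at least 10, and it counts as higher or lower past the threshold if that ratio lay beyond 1.5 in either direction and the interval left out 0. In bulk RNA, fewer cells of a type and less RNA per cell cannot be told apart.

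The label of hepatocyte was checked against marker genes. Albumin (Alb) went from 32076 control to 2917 senescent reads, at -3.23 on the log2 scale, and Apoa1 had 2026 and 197 reads, at -3.13, so both classical hepatocyte products were present and lower after peroxide. Of the other secreted products, Ttr was at -0.91, Serpina1a at -1.42 and Apob at 0.41. Fgb (16 control and 14 senescent reads, at 0.03) and Afp (75 and 65 reads, at 0.02) had few reads, and their intervals held 0. The keratins Krt8 and Krt18 were at 0.51 and 0.82, so the hepatocyte genes did not move together. Of the 10 hepatocyte markers, 9 were found in the table, with 2 lower and 0 higher past the threshold. Of all 14383 tested genes, 5.6% were lower and 2.71% higher. The 9 markers summed to 8236 CPM in control and 9859 CPM in senescent cells. Krt8, with 119403 and 144783 reads, was the most abundant gene in that sum. Of the cholangiocyte markers, Krt19 had 22885 and 19177 reads, Sox9 had 3602 and 4454, Krt7 had 3248 and 1026, and Epcam had 0 and 1. Of the macrophage markers, Adgre1 and Clec4f had 0 reads in both libraries, while Cd68 had 34 and 40 reads and Ptprc 27 and 76, which is higher past the threshold at 1.68. The 6 stellate cell or fibroblast markers summed to 27 and 5 reads, and the 4 endothelial markers to 5 and 12. The part of these markers in the results below was not tested.

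Of the 44 members, 41 were tested. Ldhb, Pck1 and Fbp1 had too few reads. None of the 41 was higher past the threshold, against 2.71% of the 14383 genes tested in the whole table. Lower past the threshold were 5 members, or 12.2% of those tested, against 5.6% of all tested genes. They are Slc2a2, Aldoc, Eno2, Pdk1 and Pdk4. At a log2 ratio of 1 in place of 1.5, Hk2 alone was higher, which is 2.44% of the tested members against a background of 5.09%. At that lower threshold 10 members were lower, or 24.4% against 9.98%, and the added genes are Pfkl, Eno3, Ldha, Pdk3 and Mpc1. Counting only whether the interval left out 0, 7 members were higher (17.1%, against 34% of all tested genes) and 30 were lower (73.2%, against 34.6%). The 4 members whose interval held 0 are Dlat, Pdp2, Slc16a3 and G6pc. Of the 5 members past the threshold of 1.5, Slc2a2 lay nearest to it at -1.85, with its interval (-2.02 to -1.68) wholly beyond. Pdk3 lay just outside with -1.49.

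The median log2 ratio of the 41 members was -0.48, with quartiles of -0.91 and -0.08. Over all tested genes it was -0.02, with quartiles of -0.48 and 0.35. Since many members are abundant, the same was computed for genes with at least 1000 reads over both libraries. There the median was -0.38 for 29 members and 0.08 for 7804 genes. In all, 32 of the 41 tested members lay under the median of all tested genes.

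**Figure D1:**
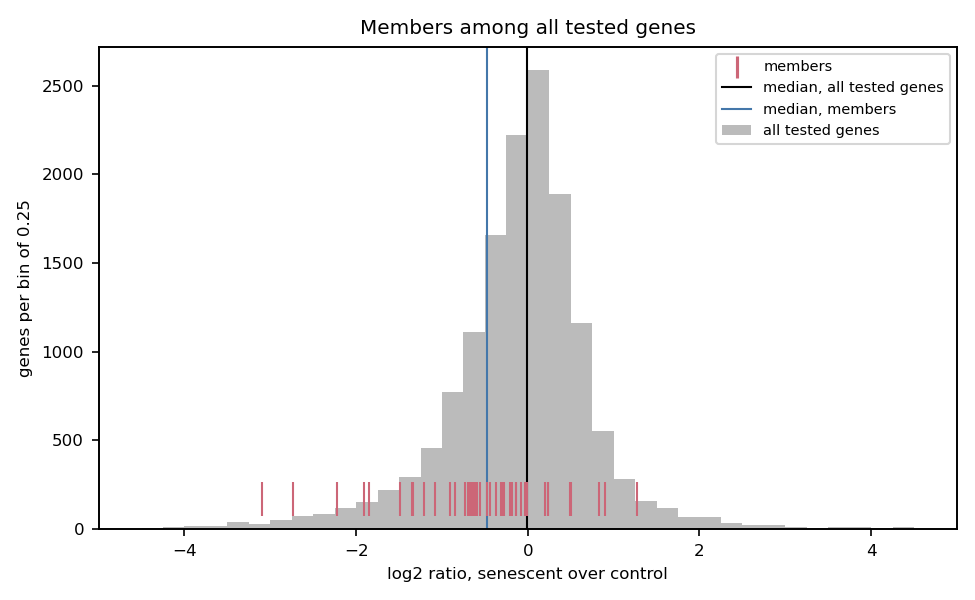
Histogram of the log2 ratio of senescent over control for the 14383 tested genes (grey, genes per bin), with the 41 tested members as red ticks at the base. The members' median of -0.48 (blue line) lies to the left of the median of all tested genes at -0.02 (black line), and no member lies beyond 1.5 on the right.

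The members together took 348935 control reads, or 1.25% of the library, and 217479 senescent reads, or 0.845%. This is a log2 ratio of -0.45 (95% interval -0.46 to -0.44). The 17 genes from hexokinase to pyruvate kinase took 272290 and 177115 reads, at -0.39. In scaled units the members summed to 11999 CPM in control and to 8769 CPM in senescent cells. Of this change of -3230.2 CPM, Ldha held 26.5%, Tpi1 13.5%, Aldoa 13.4%, Gapdh 11.7% and Eno1 11.2%, so these 5 genes together made up 76.2%. Pdk1, the member with the lowest log2 ratio, was less abundant and held 1.53%.

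**Figure D2:**
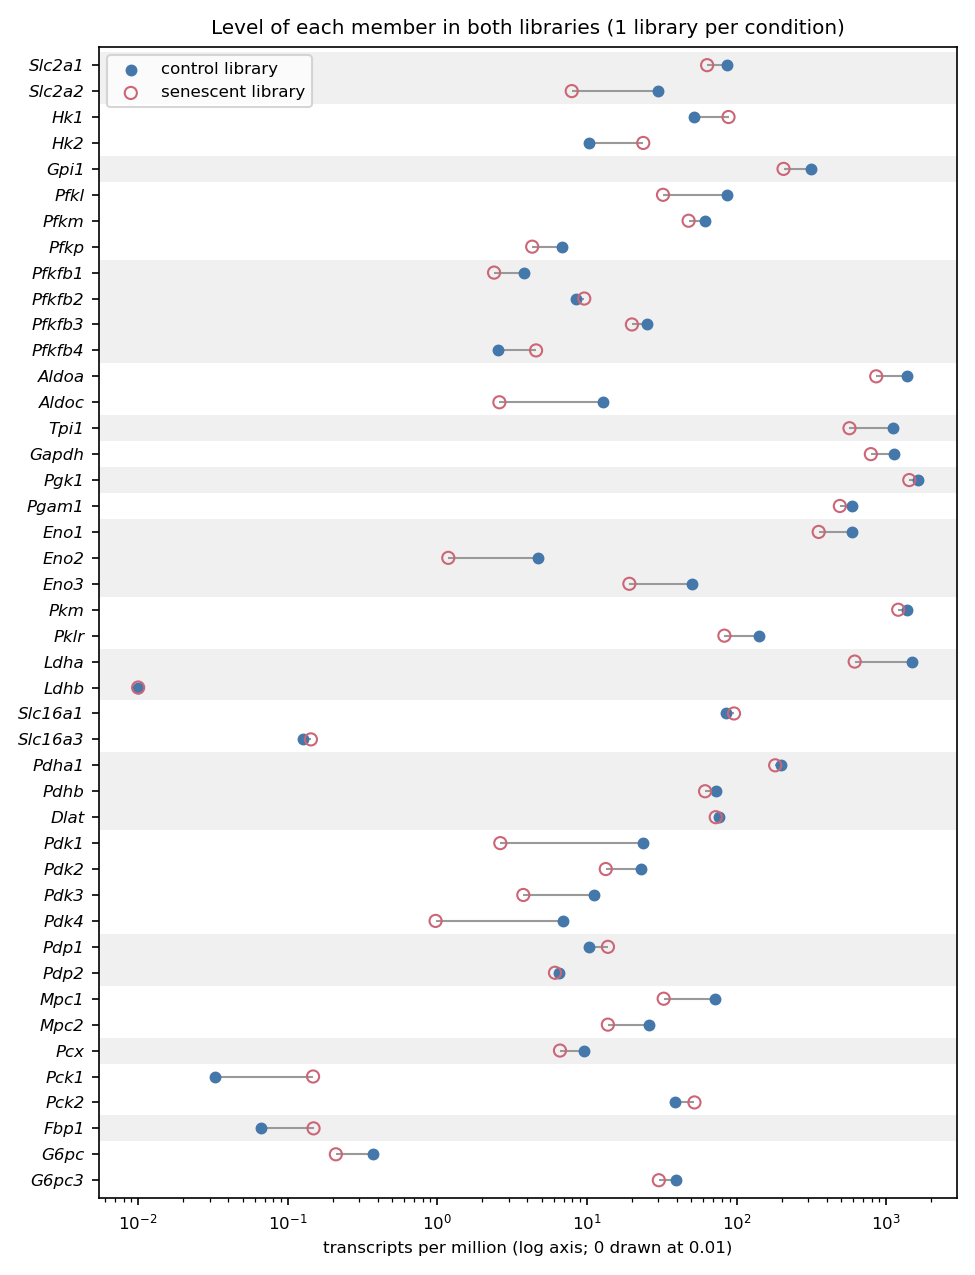
Level of each of the 44 members in the control library (blue dots) and the senescent library (red rings) in TPM on a log axis, in pathway order with shaded bands marking steps. Most rings lie left of their dot; the hexokinases Hk1 and Hk2 lie to the right, and long gaps to the left belong to Pdk1, Pdk4, Aldoc, Eno2 and Slc2a2, while Pck1 and Fbp1 rest on 4 or fewer reads and Ldhb, at 0, is drawn at 0.01.

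Glucose enters cells through the facilitative transporters of the Slc2a family. Slc2a1, the widely expressed transporter GLUT1, had 2682 control and 1762 senescent reads, or 92.2 and 71.0 CPM, a log2 ratio of -0.38 (-0.46 to -0.29). Slc2a2, the high-capacity transporter GLUT2 of hepatocytes, lies on chromosome 3 (28697903 to 28731359, plus strand). It had 1523 control and 360 senescent reads, or 52.4 and 14.5 CPM, which is 3.60-fold lower after peroxide at a log2 ratio of -1.85 (-2.02 to -1.68). Both transporters were lower, the hepatocyte form by more. Slc2a1 accordingly took 63.8% of the reads of the pair in control and 83.0% in senescent cells, a gain of 19.3 percentage points (Newcombe interval 17.1 to 21.4).

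Hexokinase traps glucose in the cell by phosphorylation, and it was the one step of the glycolytic trunk that was higher after peroxide. Hk1, the broadly expressed form, had 3937 control and 5960 senescent reads, or 135 and 240 CPM, and was 1.77-fold higher (log2 ratio 0.83, 0.77 to 0.89). Hk2, an inducible form typical of muscle and growing cells, had 544 and 1122 reads, or 18.7 and 45.2 CPM, and was 2.42-fold higher (1.27, 1.12 to 1.42). The 2 genes together had a log2 ratio of 0.89. Hk2 took 12.1% of hexokinase reads in control and 15.8% in senescent cells, so Hk1 held the larger share in both. Of the other genes of the pathway, Hk3 had 0 and 1 reads and Hkdc1 12 and 17.

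Gpi1, which turns glucose 6-phosphate into fructose 6-phosphate, had 18129 control and 10511 senescent reads (-0.56, -0.59 to -0.52). Its exons share 741 bases with Gm26762, a long noncoding RNA on the opposite strand with 693 and 340 reads. Whether counting used strand is not given in the sources used here, which leaves the assignment of reads among such overlapping genes uncertain.

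Phosphofructokinase commits sugar phosphate to glycolysis, and its liver, muscle and platelet isoforms are encoded by Pfkl, Pfkm and Pfkp. Pfkl had 5085 control and 1701 senescent reads, or 175 and 68.6 CPM, and was 2.55-fold lower (-1.35, -1.43 to -1.27). Pfkm had 1827 and 1262 reads (-0.30, -0.41 to -0.20), with 341 exon bases shared with Gm26513 on the same strand. Pfkp had 816 and 456 reads (-0.61, -0.78 to -0.44), with 748 exon bases shared with Pitrm1 on the opposite strand. All 3 were lower, the liver isoform by the most. Pfkl took 65.8% of the step's reads in control and 49.8% in senescent cells, a change of -16.0 points (interval -18.0 to -14.1), and Pfkm went from 23.6% to 36.9%. Corrected for exon length, Pfkl led in the control with 55.6% to 39.9% for Pfkm, and Pfkm led in the senescent library with 56.7% to 38.2%.

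Fructose 2,6-bisphosphate, an allosteric activator of phosphofructokinase, is made and removed by the bifunctional enzymes Pfkfb1 to Pfkfb4. Pfkfb3, whose kinase activity dominates, had 1704 control and 1194 senescent reads (-0.28, -0.39 to -0.18). Pfkfb2, known as the heart isoform, had 546 and 550 reads (0.24, 0.07 to 0.41). It shares 1262 exon bases with Gm29427 on the same strand, which had 1 read in each library. Pfkfb1, the liver isoform, had 135 and 76 reads (-0.59, -1.02 to -0.18). Pfkfb4 had 110 and 176 reads and was 1.87-fold higher (0.90, 0.56 to 1.26). The family thus moved in both directions within a small total of 2495 and 1996 reads, with Pfkfb3 at 68.3% of it in control and 59.8% in senescent cells.

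Aldolase cuts the sugar into triose phosphates. Aldoa, the main form of most tissues, had 35752 control and 19748 senescent reads, or 1229 and 796 CPM (-0.63, -0.65 to -0.60). Aldoc, the brain isoform, lies on chromosome 11 (78322968 to 78327781, plus strand). It had 371 and 67 reads, or 12.8 and 2.70 CPM, and was 4.67-fold lower (-2.22, -2.64 to -1.86). Aldoc was a small part of the step in both libraries, with 1.03% of aldolase reads in control and 0.338% in senescent cells.

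The next enzymes down to phosphoglycerate are each served by 1 member. Tpi1, which interconverts the triose phosphates, had 27198 control and 12375 senescent reads, or 935 and 499 CPM (-0.91, -0.94 to -0.88). Gapdh, the step that makes NADH, had 41256 and 25818 reads (-0.45, -0.47 to -0.42). Pgk1, the first ATP-making step, had 32537 and 25316 reads (-0.13, -0.16 to -0.11). Pgam1, the phosphoglycerate mutase, had 10377 and 7683 reads (-0.20, -0.25 to -0.16). The intervals are narrow because the genes are abundant, and the sizes differ from each other by more than counting error, from Tpi1 as the lowest to Pgk1 nearest to 0. In TPM, Pgk1 was the highest of the members in both libraries, with 1634 in control and 1428 in senescent cells. Annotated near-identical copies of Gapdh, mostly processed pseudogenes, held 7019 and 4913 reads, which is 17.0% and 19.0% of the reads on Gapdh itself. With them added its log2 ratio was -0.42.

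Enolase makes phosphoenolpyruvate. Eno1, the common form, had 28135 control and 15055 senescent reads (-0.67, -0.70 to -0.64), and its near-identical copies held 9253 and 4803 reads, with which the ratio was -0.68. Eno2, the neuronal form, lies on chromosome 6 (124760053 to 124769673, minus strand). It had 197 and 44 reads, or 6.77 and 1.77 CPM, and was 3.76-fold lower (-1.91, -2.44 to -1.46). Eno3, the muscle form, had 781 and 264 reads (-1.33, -1.54 to -1.13). All 3 enolases were lower, the minor ones by more than Eno1, which took 96.6% of the step's reads in control and 98.0% in senescent cells.

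Pyruvate kinase ends the glycolytic trunk. Pkm had 61319 control and 47612 senescent reads, or 2109 and 1920 CPM, the most of any member (-0.14, -0.15 to -0.12). Its splice forms were not separated, since counts are per gene. Pklr, the liver and red cell form, had 4029 and 2121 reads, or 139 and 85.5 CPM (-0.70, -0.77 to -0.62). It shares 711 exon bases with Hcn3 on the opposite strand, which had 81 and 74 reads. Pkm took 93.8% of the step's reads in control and 95.7% in senescent cells.

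**Figure D3:**
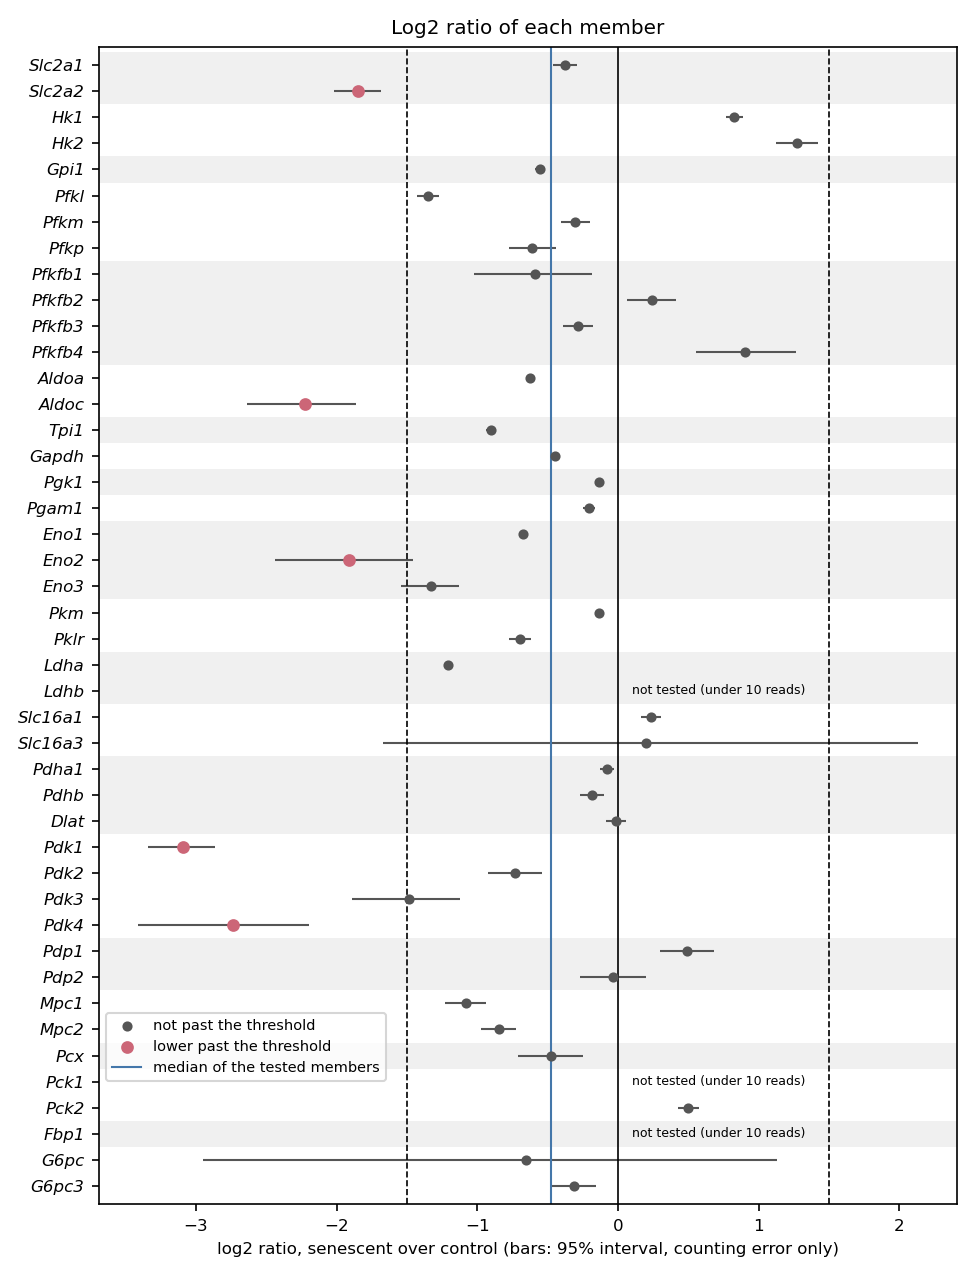
Log2 ratio of senescent over control for each member in pathway order, with bars for the 95% interval from counting error; dashed lines mark the threshold of 1.5 in each direction and the blue line the members' median of -0.48. The 5 members past the threshold (red) lie on the left, from Slc2a2 at -1.85 to Pdk1 at -3.09, and Hk2 at 1.27 is the farthest to the right.

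Lactate dehydrogenase turns pyruvate into lactate. Ldha, the subunit that predominates in glycolytic tissues, lies on chromosome 7 (46841475 to 46855627, plus strand). It had 43762 control and 16125 senescent reads, or 1505 and 650 CPM, and was 2.31-fold lower (-1.21, -1.24 to -1.18). Ldhb, the subunit typical of heart, had 0 reads in both libraries. A count of 0 allows up to 3 reads, or 0.107 per 1000000 unscaled reads in control and 0.117 in senescent cells. Ldha took all detected reads of the step. Slc16a1, the monocarboxylate transporter MCT1, had 3349 and 3363 reads, or 115 and 136 CPM (0.24, 0.17 to 0.31). Slc16a3, the lactate exporter MCT4 of glycolytic cells, had 6 reads in each library, and its interval ran from -1.67 to 2.13. Lactate dehydrogenase was thus lower and the main lactate carrier slightly higher.

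The mitochondrial pyruvate carrier is a complex of Mpc1 and Mpc2. Mpc1 had 1331 control and 536 senescent reads, or 45.8 and 21.6 CPM (-1.08, -1.23 to -0.94). Mpc2 had 1690 and 801 reads, or 58.1 and 32.3 CPM (-0.85, -0.97 to -0.73). Both subunits were lower, Mpc1 by slightly more. Mpc1 took 44.1% of the carrier's reads in control and 40.1% in senescent cells, a change of -3.97 points (interval -7.11 to -0.78). The reads of Mpc1 are uncertain to the extent that 480 of its exon bases are shared with 4930506C21Rik on the opposite strand, which had 46 and 32 reads. A near-identical copy, Mpc1-ps, held 157 and 63 reads, which is 11.8% of the reads on Mpc1 in each library. With that copy added the log2 ratio of Mpc1 was -1.08.

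The core of the pyruvate dehydrogenase complex stayed near the median of all genes. Pdha1, of the E1 component, shares 603 exon bases with Map3k15 on the opposite strand, which had 58 and 49 reads. Pdha1 itself had 6622 control and 5348 senescent reads (-0.08, -0.13 to -0.03). Pdhb, its partner subunit, had 2507 and 1880 reads (-0.19, -0.27 to -0.10). Dlat, the E2 component, had 3321 and 2804 reads (-0.01, -0.09 to 0.06).

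The kinases that switch the complex off were lower throughout. Pdk1, on chromosome 2 (71873224 to 71903858, plus strand), had 1628 control and 162 senescent reads, or 56.0 and 6.53 CPM, and was 8.53-fold lower (-3.09, -3.34 to -2.87), the lowest ratio of any tested member. Pdk4, on chromosome 6 (5483351 to 5496309, minus strand) and known for its induction by fasting, had 217 and 27 reads, or 7.46 and 1.09 CPM, and was 6.66-fold lower (-2.74, -3.41 to -2.20). Pdk3, on the X chromosome, had 252 and 76 reads, or 8.67 and 3.06 CPM (-1.49, -1.89 to -1.12). Pdk2, the most widely expressed of the 4, had 650 and 334 reads, or 22.4 and 13.5 CPM (-0.73, -0.93 to -0.54). Summed, they had 2747 control and 599 senescent reads (-1.97, -2.10 to -1.84).

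Because the kinases changed by different sizes, their proportions shifted. Pdk1 took 59.3% of kinase reads in control and 27.0% in senescent cells, a change of -32.2 points (interval -36.1 to -28.1). Pdk2 took 23.7% and then 55.8%, a gain of 32.1 points (27.8 to 36.3). This was the one step of the 13 with several isoforms in which another isoform led by reads after peroxide. Per kilobase of exon, Pdk1 and Pdk2 were near each other in the control with 36.4% and 35.7%, and Pdk2 led with 64.5% to 12.7% in the senescent library.

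The opposing phosphatases were not lower together with the kinases. Pdp1, which removes the inhibiting phosphate, had 411 control and 492 senescent reads, or 14.1 and 19.8 CPM (0.49, 0.30 to 0.68). Pdp2, the second phosphatase, had 330 and 275 reads (-0.03, -0.27 to 0.20). There were 3.71 kinase reads per phosphatase read in control and 0.781 in senescent cells, a log2 change of -2.25 (-2.44 to -2.05), which does not depend on how the libraries were scaled.

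Of the bypass enzymes of gluconeogenesis, Pck1, Fbp1 and G6pc were thinly represented, and Pck2 had the most reads. Pcx, which makes oxaloacetate from pyruvate, had 405 control and 248 senescent reads (-0.48, -0.71 to -0.25). Pck2, the mitochondrial phosphoenolpyruvate carboxykinase, had 2678 and 3227 reads, or 92.1 and 130 CPM (0.50, 0.42 to 0.57). Pck1, the cytosolic form that dominates in mouse liver, had 1 and 4 reads, too few for a fold, and the change of its share of the step ran from -0.10 to 0.28 points. Fbp1, the liver fructose bisphosphatase, had 1 and 2 reads, for which no fold is given. The glucose 6-phosphatase of liver, G6pc, had 8 and 4 reads (-0.65, -2.95 to 1.13), and G6pc3, the form of most tissues, had 776 and 532 reads, or 26.7 and 21.5 CPM (-0.31, -0.48 to -0.15). Pck1, Fbp1 and G6pc, the liver forms of the bypass, were thus at or near the limit of detection in both libraries, and Pck2 and G6pc3 held 99% or more of the senescent reads of their steps.

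**Figure D4:**
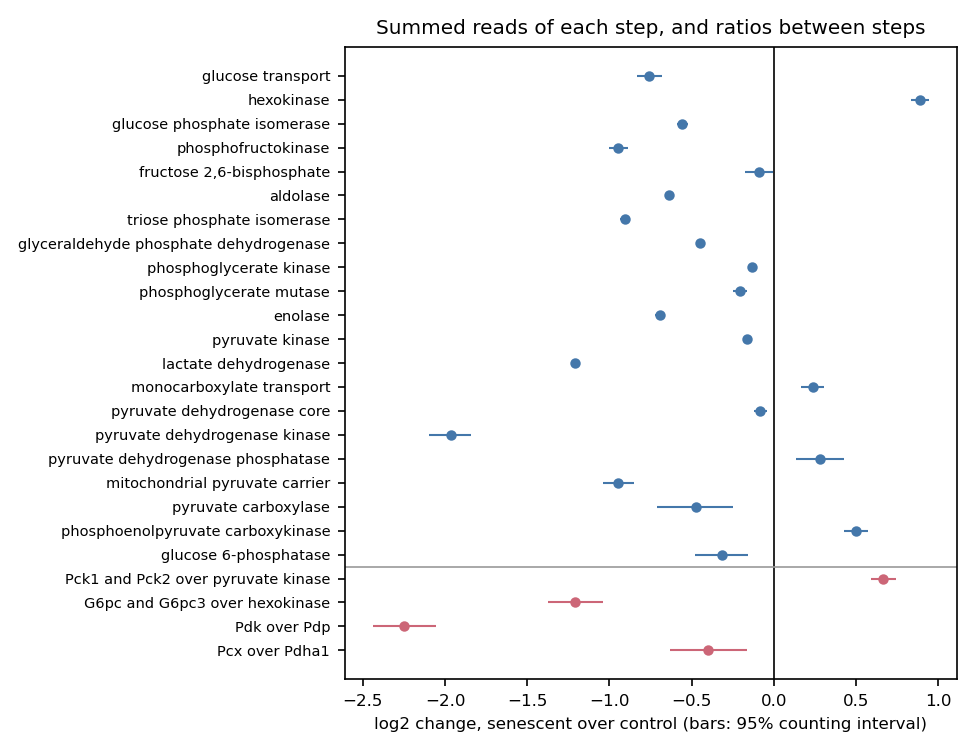
Log2 change, senescent over control, of the summed reads of each step (blue) and of 4 ratios between steps (red), with bars for 95% counting intervals. Among steps, pyruvate dehydrogenase kinase lies lowest at -1.97 and hexokinase highest at 0.89.

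Ratios of reads between steps differed in direction. Reads on Pck1 and Pck2 per read on pyruvate kinase went from 0.0410 to 0.0650, a log2 change of 0.66 (0.59 to 0.74). Reads on glucose 6-phosphatase per read on hexokinase went from 0.175 to 0.0757, a change of -1.21 (-1.38 to -1.04). Reads on Pcx per read on Pdha1 went from 0.0612 to 0.0464, a change of -0.40 (-0.63 to -0.17). Nearly all reads on the carboxykinases were those of Pck2, and nearly all on glucose 6-phosphatase those of G6pc3. Pdha1 stands here for the pyruvate dehydrogenase complex, which uses pyruvate as Pcx does. Read counts do not measure the flow through the pathway, and its link to these ratios was not tested. By extracellular flux measurements, the paper reports higher glycolysis and glycolytic reserve in senescent than in control AML12 cells. It also reports a lower capacity to oxidise glucose in mitochondria.

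Across the 13 steps with several isoforms, the leading isoform of the control gained share in 5 (Slc2a1, Aldoa, Eno1, Pkm and Pdp1) and lost share in 4 (Hk1, Pfkl, Pfkfb3 and Pdk1). In the other 4 steps (Ldha, Slc16a1, Pck2 and G6pc3) the interval of the change held 0. For Slc16a1 this depended on which genes were counted: with Slc16a7 added to the step, an alternative chosen after seeing the data, its share changed by 1.11 points (0.67 to 1.61). In 5 steps some isoform moved by at least 5 points, namely glucose transport, phosphofructokinase, the Pfkfb enzymes, the kinases and the phosphatases of pyruvate dehydrogenase.

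**Figure D5:**
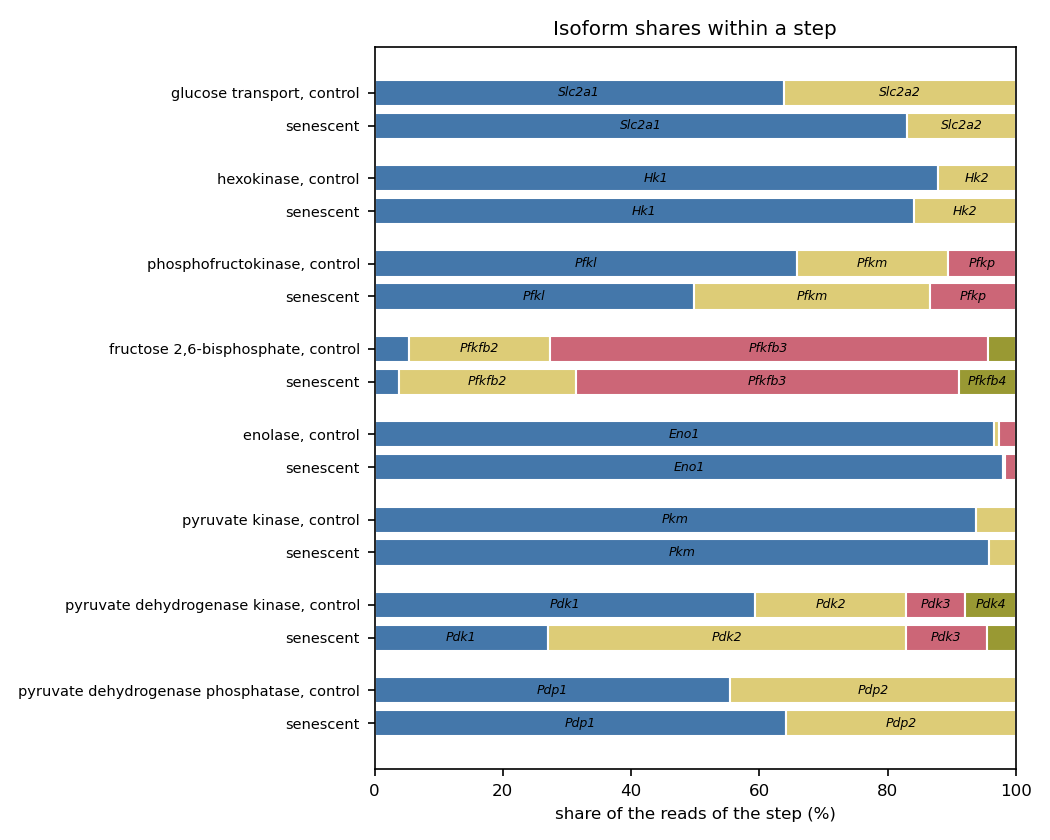
Share of each step's reads (%) taken by its isoforms in the control and the senescent library, for the 8 steps in which an isoform moved by at least 1 percentage point. The kinase bars show Pdk1 at 59.3% and then 27.0%, and the transport bars show Slc2a1 at 63.8% and then 83.0%.

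Of 39 other genes of the pathway, 31 were tested, with a median log2 ratio of -0.26. None was higher past the threshold, against 2.71% of all tested genes, and 1 was lower, against 5.6%. The lower one is Slc16a7, the monocarboxylate transporter MCT2, with 45 control and 7 senescent reads (-2.31, -3.85 to -1.30). Among those with at least 100 reads, the highest were the mitochondrial phosphatase Pgam5 (0.87), the phosphoglucomutase Pgm2 (0.86), the mitochondrial glycerol phosphate dehydrogenase Gpd2 (0.73) and Tigar, a fructose bisphosphatase (0.63). Low ratios were those of the glucose 6-phosphate transporter Slc37a4 (-1.32), the D-lactate dehydrogenase Ldhd (-1.01) and the urate and hexose transporter Slc2a9 (-0.95).

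Of 23 regulators of the pathway, 21 were tested, with a median of 0.08. None was higher past the threshold, against 2.71% of all tested genes, and 3 were lower, against 5.6%. Egln3, an oxygen-sensing prolyl hydroxylase, had 3154 control and 353 senescent reads (-2.93, -3.09 to -2.77). Mlxipl, the glucose-sensing factor ChREBP, had 587 and 81 reads (-2.61, -2.98 to -2.29). Ppargc1a, a coactivator of gluconeogenic and mitochondrial genes, had 105 and 16 reads (-2.42, -3.34 to -1.72). Cebpa followed at -1.44, a liver transcription factor. The highest were Myc (1.20), Mlxip (0.63), Crtc2 (0.49) and Mlx (0.46), and Hif1a, the oxygen-regulated factor, was at 0.21.

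Promoters were searched for ACGTG on either strand, the core of the element that hypoxia-inducible factors bind, which overlaps the E-box CACGTG of Myc and ChREBP. Windows ran from 250 bases before to 50 after each start in RefSeq on GRCm38.p6, and 43 of the 44 members were matched. The letters occurred in 25 of 65 member windows (38.5%), against 19.6% of 32851 windows in all. CACGTG was in 13.8% of member windows and in 7.15% of all. By gene, 21 of the 43 matched members (48.8%) had the core in at least 1 window, against 21.8% of all genes, and genes with more windows have more chances. These backgrounds took in every gene with a window, tested or not, while most members were tested. The sets are thus unlike, and no background matched for read level was used. Of the 5 members past the threshold, only Aldoc had it. The median log2 ratio was -0.28 for the 21 tested members with the core and -0.70 for the 19 without. Only ACGTG inside these windows was searched, so other forms of the element and sites farther away were not counted. The part of these factors in the ratios was not tested. A match is a description of sequence, not of binding.

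The windows of the 4 members with the largest log2 ratios in either direction among those that hold the core are shown because they let the letters be set beside the values. Capitals mark ACGTG or its reverse complement, and each window is written 5′ to 3′ on the strand of its gene. Aldoc is chr11:78322823-78323122 on the plus strand, Pdk3 chrX:93832101-93832400 on the minus strand, Hk2 chr6:82774405-82774704 on the minus strand and Ldha chr7:46845554-46845853 on the plus strand.
Aldoc: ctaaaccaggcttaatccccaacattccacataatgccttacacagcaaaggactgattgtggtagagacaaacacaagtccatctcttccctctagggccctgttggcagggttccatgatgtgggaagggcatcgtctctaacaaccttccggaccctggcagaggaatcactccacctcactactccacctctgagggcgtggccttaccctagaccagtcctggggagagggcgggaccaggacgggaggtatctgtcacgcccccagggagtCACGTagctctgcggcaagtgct
Pdk3: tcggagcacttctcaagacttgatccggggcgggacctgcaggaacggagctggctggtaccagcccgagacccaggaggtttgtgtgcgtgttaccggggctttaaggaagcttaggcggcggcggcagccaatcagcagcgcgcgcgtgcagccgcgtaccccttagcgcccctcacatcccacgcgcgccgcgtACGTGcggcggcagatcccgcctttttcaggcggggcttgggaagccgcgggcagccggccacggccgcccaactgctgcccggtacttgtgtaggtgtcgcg
Hk2: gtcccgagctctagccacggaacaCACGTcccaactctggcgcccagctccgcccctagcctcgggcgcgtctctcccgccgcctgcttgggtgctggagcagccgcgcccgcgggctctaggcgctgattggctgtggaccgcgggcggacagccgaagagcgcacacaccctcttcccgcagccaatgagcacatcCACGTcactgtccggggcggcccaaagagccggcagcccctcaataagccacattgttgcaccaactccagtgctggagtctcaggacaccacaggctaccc
Ldha: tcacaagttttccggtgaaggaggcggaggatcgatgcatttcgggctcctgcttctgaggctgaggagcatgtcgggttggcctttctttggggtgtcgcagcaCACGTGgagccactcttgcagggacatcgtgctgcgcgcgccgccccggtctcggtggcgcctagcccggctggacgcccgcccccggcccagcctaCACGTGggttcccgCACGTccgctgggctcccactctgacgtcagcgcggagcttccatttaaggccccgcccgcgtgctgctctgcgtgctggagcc
The windows of Aldoc and Pdk3 hold the letters at 1 place and that of Hk2 at 2, while that of Ldha holds 3 places, of which 2 are complete CACGTG. Aldoc (-2.22), Pdk3 (-1.49) and Ldha (-1.21) were lower and Hk2 (1.27) was higher, so genes that share the letters lay on both sides of 0.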

How the data were processed

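RNAseq libraries were made from poly(A) RNA of control and peroxide-treated AML12 cells, 1 library per condition from 3 pooled samples. The authors deposited un-normalized counts of reads per Ensembl gene. Per the submitters' processing notes, CASAVA, STAR, DESeq2, edgeR and mm10 were named, without role or version. Columns were assigned by the initials of the sample titles. Of 35275 genes, 34490 (97.8%) were paired with a GENCODE M21 symbol. With 1 library per condition no test of significance could be run. Counts were scaled by TMM in edgeR 4.0.16 (R 4.3.3), and TPM used union exon lengths. Ratios and Clopper-Pearson intervals were computed in Python 3.11.15 (scipy 1.17.1, pandas 2.3.3, numpy 2.4.6), near-identical transcripts were found with blastn 2.17.0 (at least 95% identity, over 50% of the other transcript), and plots were drawn with matplotlib 3.10.9. The ratios and intervals were tested on simulated data. Where a library held at most 3 reads of a gene, no fold is given. Alternatives were total-count, DESeq2 1.42.0 and upper-quartile scaling, other count minimums, prior counts and thresholds, wider intervals under an assumed coefficient of variation between samples, other denominators and lengths, and added copies. Every member is named. Of the lists, the 4 highest and 4 lowest genes with at least 100 reads and any past the threshold are named, except that some genes this rule covers are not reported here. The members, lists and tests were chosen with earlier results of these data known. Protein sequences were not used here.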

Additional observations from a re-analysis of the deposited data

How the results depend on the processing

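With 1 library per condition, no replicate could be left out, and counting error is the only error measured. No paired analysis was possible because each condition has 1 library. The 5 members lower past the threshold became 10 at a threshold of 1 and 3 at a threshold of 2, and the 0 members higher became 1 at a threshold of 1. Under total-count and upper-quartile scaling Pdk3 (-1.59 and -1.53) was added to the lower members. The median of the members was -0.58 under total-count scaling, which moved the median of all genes from -0.02 to -0.12 and left 6 members in place of 7 with an interval above 0, without Pfkfb2, and 31 in place of 30 with one below 0, with Dlat added. For an assumed coefficient of variation of 0.1, 21 members had an interval under 0 and 5 one above 0. At 0.4 only the 5 past the threshold were left under 0 and 0 above it, so the smaller differences of the report rest on the counting error alone. The share of reads on the members changed by -0.400 points, and by -0.421 with the reads of near-identical copies added. Within steps, the gain of Slc2a1 was 14.6 points per kilobase and the change of Pdk1 was -23.7 points. With paralogs added to a step, an alternative chosen after seeing the data, the gain of Slc2a1 was 17.9 points and that of Slc16a1 was 1.11 points, where its interval had held 0. For the isoform with the largest change in each step, no change whose interval left out 0 was reversed by the alternatives run. Depth limits Ldhb, Pck1, Fbp1, G6pc and Slc16a3.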

Other observations

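Some liver-typical isoforms of the shared steps were set side by side after their values were seen. Slc2a2, Pfkl and Pklr had log2 ratios of -1.85, -1.35 and -0.70, and each took a smaller share of its step's reads in the senescent than in the control library. Their shares went from 36.2% to 17.0% for Slc2a2, from 65.8% to 49.8% for Pfkl and from 6.17% to 4.26% for Pklr. Pfkfb1, the liver form of its family, went from 5.41% to 3.81%. Among other liver forms, Pck1, Fbp1 and G6pc had 8 or fewer reads in each library. For Pck1 and G6pc the interval of the change in share held 0, and Fbp1 was the only member of its step.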
